A study of Homo sapiens with 12 samples.

Results

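The Kruppel-like factors are a family of DNA-binding proteins named after the fly segmentation gene Kruppel, and the mRNAs of 10 of them were followed here: KLF2, KLF3, KLF4, KLF5, KLF6, KLF7, KLF9, KLF10, KLF11 and KLF13. They were taken by symbol from a count table of 58735 gene entries, with earlier results of these data known. RNA-seq had been made from MDA-MB-468, an established basal-like, triple-negative breast cancer cell line labelled wild type, in 4 groups of 3 libraries lettered A, B and C. The combination group had received tazemetostat (5 µM), an inhibitor of the histone methyltransferase EZH2, together with ipatasertib (5 µM), an inhibitor of the kinase AKT. Its protocol describes EZH2 inhibition from 5 days before AKT inhibition began, then medium with 2% serum and collection at 24 h. The docetaxel 24 h and docetaxel 8 h groups had received docetaxel (10 nM), a taxane that stabilises microtubules, for 24 or 8 h on larger plates. The DMSO group is the vehicle control for both kinds of treatment, and the labels give neither its hours, its serum nor its plates, so drug and culture conditions cannot be told apart in any comparison with it. Neither tazemetostat nor ipatasertib alone was analysed here. Nothing in the labels ties the letters to separate cultures, and a p-value here reflects library-to-library spread that could be technical.

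Members of the family bind GC-rich and CACCC sequences in promoters through a conserved cluster of zinc fingers near the carboxyl end, and differ in the parts that recruit partners. KLF2, KLF4, KLF5, KLF6 and KLF7 are known mainly as activators through acetyltransferases, although KLF4 also represses. KLF3 represses through CTBP proteins, and KLF9, KLF10, KLF11 and KLF13 through SIN3A and histone deacetylases. In epithelia KLF4 is known for differentiation and cell-cycle arrest and KLF5 for proliferation of basal cells. KLF2 is known as a quiescence factor of endothelium and T cells.

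Promoters are shown of 3 members, those of the member that changed most (KLF4), of the member that was lower under every treatment (KLF13) and of KLF2, with the RefSeq sequence of GRCh38.p14 on the gene's strand, 250 bases before to 50 after the start, 5′ to 3′. Capitals mark matches on either strand to the GC box GGGGCGGGG and to CACCC. KLF4 is chr9:107489720-107490019 on the minus strand, KLF13 is chr15:31326585-31326884 on the plus strand and KLF2 is chr19:16324576-16324875 on the plus strand.
KLF4: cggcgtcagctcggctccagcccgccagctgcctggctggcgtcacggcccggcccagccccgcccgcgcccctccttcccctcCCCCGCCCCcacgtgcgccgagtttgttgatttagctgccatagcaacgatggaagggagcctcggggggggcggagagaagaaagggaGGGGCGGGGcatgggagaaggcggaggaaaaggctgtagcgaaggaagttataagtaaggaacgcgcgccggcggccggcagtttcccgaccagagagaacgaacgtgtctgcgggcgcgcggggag
KLF13: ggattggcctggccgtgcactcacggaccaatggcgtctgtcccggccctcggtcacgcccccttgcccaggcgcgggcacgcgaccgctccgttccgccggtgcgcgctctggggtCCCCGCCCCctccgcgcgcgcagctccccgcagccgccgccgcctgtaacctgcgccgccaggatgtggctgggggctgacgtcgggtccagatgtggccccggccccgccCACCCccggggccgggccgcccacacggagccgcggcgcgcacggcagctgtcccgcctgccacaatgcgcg
KLF2: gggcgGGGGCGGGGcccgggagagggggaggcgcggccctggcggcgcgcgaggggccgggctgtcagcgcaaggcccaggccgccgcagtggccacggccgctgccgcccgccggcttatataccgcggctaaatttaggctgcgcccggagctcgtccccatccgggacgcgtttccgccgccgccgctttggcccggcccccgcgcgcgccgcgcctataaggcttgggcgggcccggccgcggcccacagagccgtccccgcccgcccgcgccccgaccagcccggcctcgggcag
The KLF4 window held 2 GC boxes, the KLF13 window 1 GC box and 1 CACCC, and the KLF2 window 1 GC box. These 3 windows were picked and give no share among the members. The KLF6 and KLF9 windows held neither the GC box nor CACCC, and KLF5, KLF7 and KLF11 held the GC box in only some of their windows. Of 35114 such windows of all genes, 15.7% held the GC box and 59.9% held CACCC. Windows of 8 of the 10 members, 13 in all, were searched. No window of KLF3 or KLF10 was searched, so nothing is said of their promoters. The letters TGTTTAC, bound by FOXO factors, were in none of the 13 windows searched and in 3.42% of all windows. The letters TGACGTCA, the cyclic AMP response element, were in 1 window of KLF11 and in 1.85% of all windows. Such matches describe the letters and not a bound site.

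Libraries held 29820617 to 45807059 counts, and the 10 members took 0.0344% to 0.0505% of them. Levels below are TMM-scaled counts per 1000000 counts (CPM), as mean ± SD of 3 libraries. Differences are log2 fold changes ± SE from the quasi-likelihood test of edgeR, with Benjamini-Hochberg adjusted p over 17780 genes, and are called at an adjusted p under 0.05. All 10 members passed the filter on low counts. Mitochondrial genes took 8.49% ± 0.799 of counts in the combination, 6.38% ± 1.28 at docetaxel 24 h and 8.55% ± 0.409 at docetaxel 8 h, against 4.21% ± 0.244 in DMSO (SD, n = 3 each), and the part of this in the results was not tested. Markers of the line (EPCAM, keratins, EGFR and others) summed to 10533 to 13572 CPM per library. Of these 9 markers, 4 were higher and 2 lower in the combination than in DMSO (4 and 4 with libraries scaled by their totals). At docetaxel 24 h 5 were higher and 2 lower, and at docetaxel 8 h 7 and 2 (5 and 2 so scaled). Over all genes tested, 62.8%, 42.9% and 47.3% were called in these comparisons. KRT5 averaged 936 CPM in the combination and 1624 CPM in DMSO, and VIM averaged 161 and 44.1 CPM. SMAD4, which is known to be deleted in this line, had 5 to 19 counts per library. In bulk RNA, fewer cells of a type and less RNA per cell cannot be told apart.

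**Figure D1:**
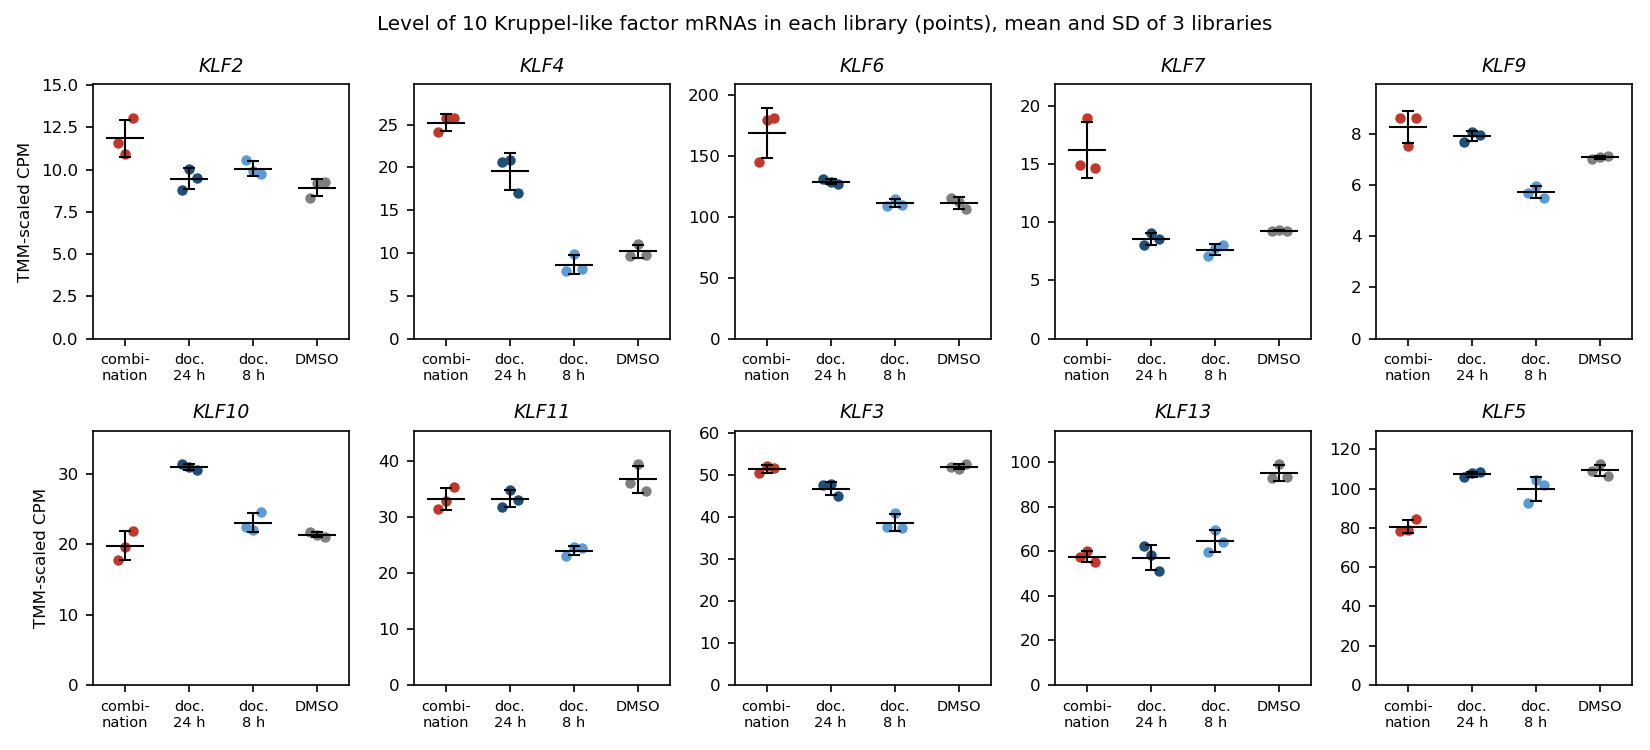
TMM-scaled CPM of each of the 10 members (vertical axis, starting at 0, own scale per panel) in each library (points), with the mean and SD of 3 libraries (lines and bars), for the combination, docetaxel 24 h, docetaxel 8 h and DMSO. KLF4 is highest in the combination (25.2 CPM) and next at docetaxel 24 h (19.5 CPM), KLF10 is highest at docetaxel 24 h (31.0 CPM), and KLF13 lies below its DMSO libraries (95.2 CPM) in all treated groups.

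In the combination KLF4, KLF7, KLF6, KLF2 and KLF9 were higher than in DMSO, and KLF13 and KLF5 were lower. Thus 5 of 10 members were higher and 2 lower, where 31.4% of all genes tested were higher and 31.4% lower, 62.8% in either direction. The members' median log2 fold change was 0.10, against 0.01 over all genes tested. With libraries scaled by their totals the split was 4 higher and 3 lower.

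KLF4, one of the factors used to reprogram somatic cells, had the largest difference. It stood at 24.1, 25.7 and 25.8 CPM in combination libraries A, B and C, against 9.70, 11.1 and 9.78 CPM in DMSO. Each combination library lay more than 10 CPM above each DMSO library. This gave a log2 fold change of 1.31 ± 0.09 (edgeR adjusted p = 2.64e-11), a ratio of 2.48.

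KLF6, an activator first described as a core-promoter-binding protein, was the member with the most counts. It had 145, 179 and 181 CPM in the combination, against 115, 112 and 106 CPM in DMSO. Combination library A stood apart from its 2 partners but above all DMSO libraries. Its log2 fold change was 0.60 ± 0.06 (edgeR adjusted p = 2.78e-08).

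KLF7, known for its part in neuronal development, had 14.9, 19.0 and 14.7 CPM in the combination, against 9.28, 9.36 and 9.22 CPM in DMSO. The DMSO libraries were nearly level, and combination library B was the highest. On the log2 scale the difference was 0.80 ± 0.10 (edgeR adjusted p = 1.45e-07).

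KLF2 had 11.5, 10.9 and 13.1 CPM in the combination, against 8.34, 9.20 and 9.28 CPM in DMSO. The groups did not overlap, and the log2 fold change was 0.41 ± 0.09 (edgeR adjusted p = 4.04e-04). Of the 7 endothelial markers, 5 were tested, and 3 were higher (KDR, CDH5 and ESAM) and 0 lower. Over all genes tested, 31.4% were higher and 31.4% lower. The list summed to 50.5 to 52.2 CPM per library in the combination, against 30.6 to 32.8 CPM in DMSO. The defining markers PECAM1 and TIE1 stayed at 0.0955 and 0.0109 CPM in the combination, against 0.108 and 0.0288 CPM in DMSO, and VWF at 0.350 against 0.170 CPM. The part of this list in the KLF2 result was not tested.

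KLF9, a steroid- and thyroid-hormone-responsive repressor, averaged 8.27 ± 0.629 CPM in the combination and 7.09 ± 0.064 CPM in DMSO (SD, n = 3 each). The groups did not overlap. The log2 fold change of 0.22 ± 0.09 was only just called (edgeR adjusted p = 0.0410), and 9 of 12 alternatives of processing lost the call (library totals, no filter, the replicate block, the DESeq2 Wald test, and without combination library A or C or any 1 DMSO library), with adjusted p up to 0.231.

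KLF5, which in basal-like breast cancer cells is known to promote proliferation, was the highest member per length in DMSO. It had 78.6, 79.0 and 84.4 CPM in the combination, against 109, 112 and 106 CPM in DMSO. The groups lay well apart, with a log2 fold change of -0.44 ± 0.05 (edgeR adjusted p = 1.12e-07). Genes of the ubiquitin ligases known to target KLF5, WWP1 and FBXW7, had log2 fold changes of -0.03 and -0.17 and did not pass. Of the 14 ubiquitin ligases and stabilisers of KLF proteins, 2 were higher and 6 lower, YAP1 and WWTR1 among the lower (-0.22 and -0.40). Over all genes tested, 31.4% were higher and 31.4% lower, 62.8% in either direction. The part of these mRNAs in the KLF5 result was not tested.

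KLF13, known for regulating the chemokine RANTES in T cells, had 57.6, 60.3 and 55.2 CPM in the combination, against 93.0, 99.2 and 93.5 CPM in DMSO. All combination libraries were far below those of DMSO, at a log2 fold change of -0.72 ± 0.07 (edgeR adjusted p = 1.88e-09). KLF11 and KLF10, both induced by TGF-beta in other cells, had log2 fold changes of -0.15 ± 0.06 and -0.11 ± 0.07 (edgeR adjusted p = 0.0503 and 0.182). KLF11 passed in 5 of 12 alternatives (library totals, no filter, the replicate block, without combination library C and without DMSO library C). Its adjusted p (edgeR, or the DESeq2 Wald test in 1 of the 12) ran from 0.0232 to 0.284. KLF10 passed in 1, without combination library C (edgeR adjusted p = 0.0331). The CTBP-dependent repressor KLF3 stood at 51.5 ± 0.897 CPM in the combination and 52.0 ± 0.563 CPM in DMSO, with a log2 fold change of -0.02 ± 0.05.

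**Figure D2:**
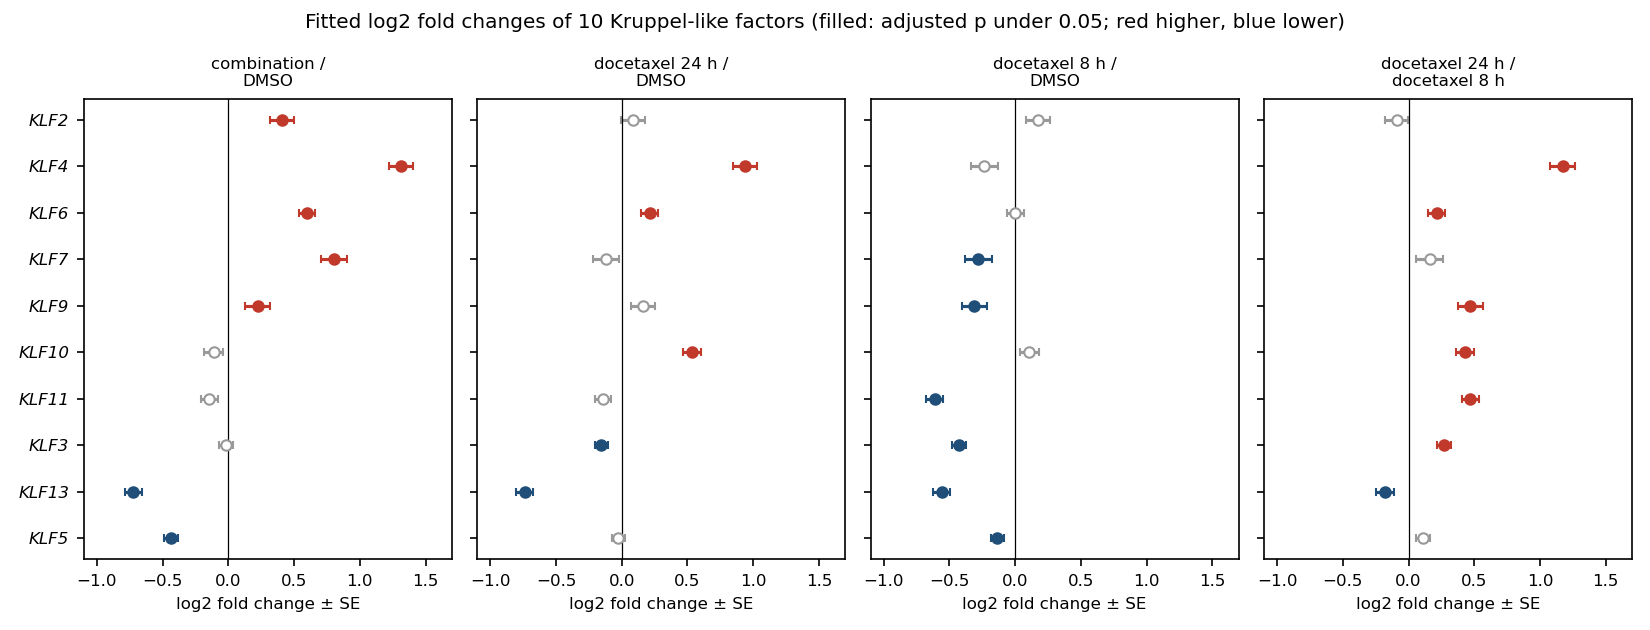
Log2 fold change ± SE (horizontal axis) of each member (rows) in 4 comparisons (panels), filled red where higher and blue where lower at an adjusted p under 0.05, open where not called. KLF13 lies left of 0 in every panel, and KLF4 lies right of 0 in the combination (1.31) and at docetaxel 24 h (0.94) but not at docetaxel 8 h (-0.23).

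After 24 h of docetaxel, KLF4, KLF10 and KLF6 were higher than in DMSO and KLF13 and KLF3 were lower. That is 3 of 10 members higher and 2 lower, where 20.2% of all genes tested were higher and 22.7% lower, 42.9% in either direction. The median log2 fold change of the members was 0.03, against 0.006 over all genes. Without DMSO library C, 3 members were called in place of 5.

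KLF4 had 20.7, 20.9 and 17.0 CPM at docetaxel 24 h, against 9.70, 11.1 and 9.78 CPM in DMSO. Library C was the lowest of the docetaxel libraries and still lay above all DMSO libraries. Its log2 fold change was 0.94 ± 0.09 (edgeR adjusted p = 6.72e-08), a ratio of 1.91.

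KLF10 had 31.4, 31.0 and 30.6 CPM at docetaxel 24 h, against 21.8, 21.3 and 21.0 CPM in DMSO. The spread within either group was under 1 CPM. This gave a log2 fold change of 0.54 ± 0.07 (edgeR adjusted p = 1.99e-06).

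KLF13 fell to 62.3, 58.2 and 51.3 CPM at docetaxel 24 h, against 93.0, 99.2 and 93.5 CPM in DMSO, a log2 fold change of -0.74 ± 0.07 (edgeR adjusted p = 1.40e-08). The difference was larger than the spread of both groups. KLF6 averaged 129 ± 2.14 CPM at docetaxel 24 h and 111 ± 4.61 CPM in DMSO (SD, n = 3 each), with a log2 fold change of 0.21 ± 0.06 (edgeR adjusted p = 0.00972). Without DMSO library C it was 0.19 (edgeR adjusted p = 0.0526). KLF3 averaged 46.8 ± 1.58 CPM at docetaxel 24 h and 52.0 ± 0.563 CPM in DMSO, a log2 fold change of -0.15 ± 0.05 (edgeR adjusted p = 0.0191). That call was lost without docetaxel 24 h library C or without any 1 DMSO library (edgeR adjusted p up to 0.101).

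After 8 h of docetaxel the called members were all lower than in DMSO: KLF11, KLF13, KLF3, KLF9, KLF7 and KLF5. This is 0 of 10 members higher and 6 lower, where 22.5% of all genes tested were higher and 24.8% lower, 47.3% in either direction. The median log2 fold change of the members was -0.26, against -0.02 over all genes. With libraries scaled by their totals the median of all genes was -0.18 and 7 members were lower. The members' summed level was 393 ± 17.4 CPM at docetaxel 8 h and 461 ± 11.4 CPM in DMSO (SD, n = 3 each).

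KLF11, a SIN3A-dependent repressor, had 23.0, 24.5 and 24.4 CPM at docetaxel 8 h, against 36.0, 39.4 and 34.5 CPM in DMSO. No docetaxel library came near a DMSO library. On the log2 scale the difference was -0.61 ± 0.07 (edgeR adjusted p = 7.35e-08). KLF11 exons share 416 bases with the antisense gene AC104794.4, which had 0 to 1 counts per library.

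KLF3 had 37.6, 41.0 and 37.5 CPM at docetaxel 8 h, against 51.9, 51.5 and 52.6 CPM in DMSO, a log2 fold change of -0.43 ± 0.05 (edgeR adjusted p = 6.90e-07). The DMSO libraries were again the higher. Its exons share 266 bases with the antisense KLF3-AS1, which had 11 to 37 counts per library, and whether counting used strand is not given in the sources used here.

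KLF13 had 59.8, 69.7 and 64.4 CPM at docetaxel 8 h, against 93.0, 99.2 and 93.5 CPM in DMSO. The log2 fold change was -0.56 ± 0.07 (edgeR adjusted p = 2.84e-07), so KLF13 was lower in all 3 treated groups, which share the DMSO libraries. KLF9 averaged 5.71 ± 0.238 CPM at docetaxel 8 h and 7.09 ± 0.064 CPM in DMSO (SD, n = 3 each), a log2 fold change of -0.31 ± 0.10 (edgeR adjusted p = 0.0106). KLF7 and KLF5 had log2 fold changes of -0.28 ± 0.10 and -0.13 ± 0.05 (edgeR adjusted p = 0.0284 and 0.0335). Both calls were lost without docetaxel 8 h library A or without any 1 DMSO library, and that of KLF7 also in the DESeq2 Wald test. The adjusted p was up to 0.115 for KLF7 (edgeR or the DESeq2 Wald test) and up to 0.220 for KLF5 (edgeR). KLF4 had a log2 fold change of -0.23 ± 0.10 that did not pass (edgeR adjusted p = 0.0617) but did with library totals (-0.39, edgeR adjusted p = 0.00475), with no filter, with the replicate block and without docetaxel 8 h library B. KLF6 averaged 111 CPM in both groups.

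Between the docetaxel times, 6 of 10 members were higher at 24 h than at 8 h and 1 was lower, where 16.6% of all genes tested were higher and 18.3% lower, 34.9% in either direction. The higher ones were KLF4, KLF9, KLF11, KLF10, KLF3 and KLF6. The median log2 fold change of the members was 0.24, against 0.01 over all genes. With library totals the median of all genes was 0.14, and 8 members were higher and 0 lower.

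KLF4 had 20.7, 20.9 and 17.0 CPM at docetaxel 24 h, against 7.85, 9.92 and 8.13 CPM at docetaxel 8 h. The times did not overlap, and the log2 fold change was 1.17 ± 0.10 (edgeR adjusted p = 2.54e-09). KLF11 and KLF9 both had log2 fold changes of 0.47, with edgeR adjusted p = 5.78e-06 and 4.82e-04. KLF11, low at docetaxel 8 h, stood at 33.2 ± 1.51 CPM at docetaxel 24 h, where its difference from DMSO did not pass (-0.14 ± 0.06, edgeR adjusted p = 0.0703) except with the replicate block or without docetaxel 24 h library B. KLF10 and KLF3 had log2 fold changes of 0.43 ± 0.07 and 0.27 ± 0.05. KLF13 had -0.18 ± 0.07 (edgeR adjusted p = 0.0405), with libraries of the 2 times overlapping and the call lost in 6 of 12 alternatives (library totals, the 2-group fit, and without library B or C of either time, with edgeR adjusted p up to 0.634).

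The combination was also set against docetaxel at each time. Against docetaxel 24 h, 5 members were higher (KLF7, KLF6, KLF4, KLF2 and KLF3) and 2 lower (KLF10 and KLF5), where 32.1% of all genes tested were higher and 31.7% lower, 63.8% in either direction. The call of KLF3 (log2 fold change 0.14, edgeR adjusted p = 0.0240) was lost with library totals, with no filter, without docetaxel 24 h library C and without combination library B or C (edgeR adjusted p up to 0.160). KLF7 differed most, at 16.2 ± 2.42 CPM in the combination and 8.55 ± 0.516 CPM at docetaxel 24 h (SD, n = 3 each), a log2 fold change of 0.92 ± 0.10 (edgeR adjusted p = 1.78e-08). KLF10 ran the other way, at 19.8 ± 2.09 CPM in the combination and 31.0 ± 0.399 CPM at docetaxel 24 h, a log2 fold change of -0.65 ± 0.07 (edgeR adjusted p = 3.27e-08). KLF13 and KLF11 stood at 57.7 and 33.1 CPM in the combination, and at 57.2 and 33.2 CPM at docetaxel 24 h.

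Against docetaxel 8 h, 7 members were higher in the combination and 3 lower (KLF5, KLF10 and KLF13), where 34.3% of all genes tested were higher and 32.1% lower, 66.4% in either direction. With library totals 7 were higher and 1 lower, the calls of KLF10 and KLF13 being lost. KLF13 (log2 fold change -0.16, edgeR adjusted p = 0.0350, libraries overlapping) also lost its call in the 2-group fit, without docetaxel 8 h library B or C and without combination library A or C (edgeR adjusted p up to 0.581). KLF10 (-0.22, edgeR adjusted p = 0.0101) also lost it without docetaxel 8 h library C or combination library A (edgeR adjusted p up to 0.257). The log2 fold change of KLF4 was 1.55 ± 0.10 (edgeR adjusted p = 1.62e-12) and that of KLF7 was 1.08 ± 0.10 (edgeR adjusted p = 1.47e-09).

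From highest to lowest group mean, KLF4 and KLF6 both ran combination, docetaxel 24 h, DMSO and docetaxel 8 h, and in both the lowest neighbouring pair did not differ beyond its spread. KLF9 ran in the same order, with the lowest pair called and the upper neighbours not. It averaged 8.27 CPM in the combination, 7.91 CPM at docetaxel 24 h and 5.71 CPM at docetaxel 8 h, against 7.09 CPM in DMSO. KLF2 ran combination, docetaxel 8 h, docetaxel 24 h and DMSO, at 11.8 CPM in the combination, 9.46 CPM at docetaxel 24 h and 10.1 CPM at docetaxel 8 h, against 8.94 CPM in DMSO. Its lower neighbours overlapped, and the combination differed from docetaxel 8 h (edgeR adjusted p = 0.0269), a call lost in 5 of 12 alternatives (no filter, the DESeq2 Wald test, and without docetaxel 8 h library B or C or combination library C, with adjusted p up to 0.172).

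KLF7 ran combination, DMSO, docetaxel 24 h and docetaxel 8 h, at 16.2 CPM in the combination, 8.55 CPM at docetaxel 24 h and 7.66 CPM at docetaxel 8 h, against 9.29 CPM in DMSO, and no neighbouring pair below the combination passed. KLF3 and KLF11 were both lowest at docetaxel 8 h and highest in DMSO. For KLF3 the combination and DMSO did not differ beyond their spread, and for KLF11 the combination, docetaxel 24 h and DMSO neighbours did not. KLF10 was highest at docetaxel 24 h, and below it no neighbouring pair passed, at 19.8 CPM in the combination and 23.1 CPM at docetaxel 8 h, against 21.4 CPM in DMSO. KLF13 was lowest at docetaxel 24 h and in the combination, which did not differ beyond their spread. KLF5 was lowest in the combination, at 80.7 CPM, with 107 CPM at docetaxel 24 h and 99.5 CPM at docetaxel 8 h, against 109 CPM in DMSO, and above the combination no neighbouring pair passed. The span between the highest and lowest group was 1.55 on the log2 scale for KLF4 and 1.08 for KLF7, and ran down to 0.41 for KLF2.

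Per kilobase of exon, KLF5 and KLF6 were the most abundant members in every group. KLF5 stood at 20.7 ± 0.825 CPM per kb in the combination, 27.6 ± 0.324 at docetaxel 24 h, 25.6 ± 1.56 at docetaxel 8 h and 28.1 ± 0.765 in DMSO. KLF6 stood at 27.4 ± 3.33 CPM per kb in the combination, 21.0 ± 0.349 at docetaxel 24 h, 18.1 ± 0.547 at docetaxel 8 h and 18.1 ± 0.751 in DMSO. KLF6 was thus above KLF5 in the combination and below it in the other groups. KLF7 and KLF9 were the least abundant, between 0.827 and 1.75 CPM per kb for KLF7 and between 1.10 and 1.60 for KLF9. KLF4 ranked near them in DMSO, at 2.79 CPM per kb, and reached 6.90 in the combination.

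**Figure D3:**
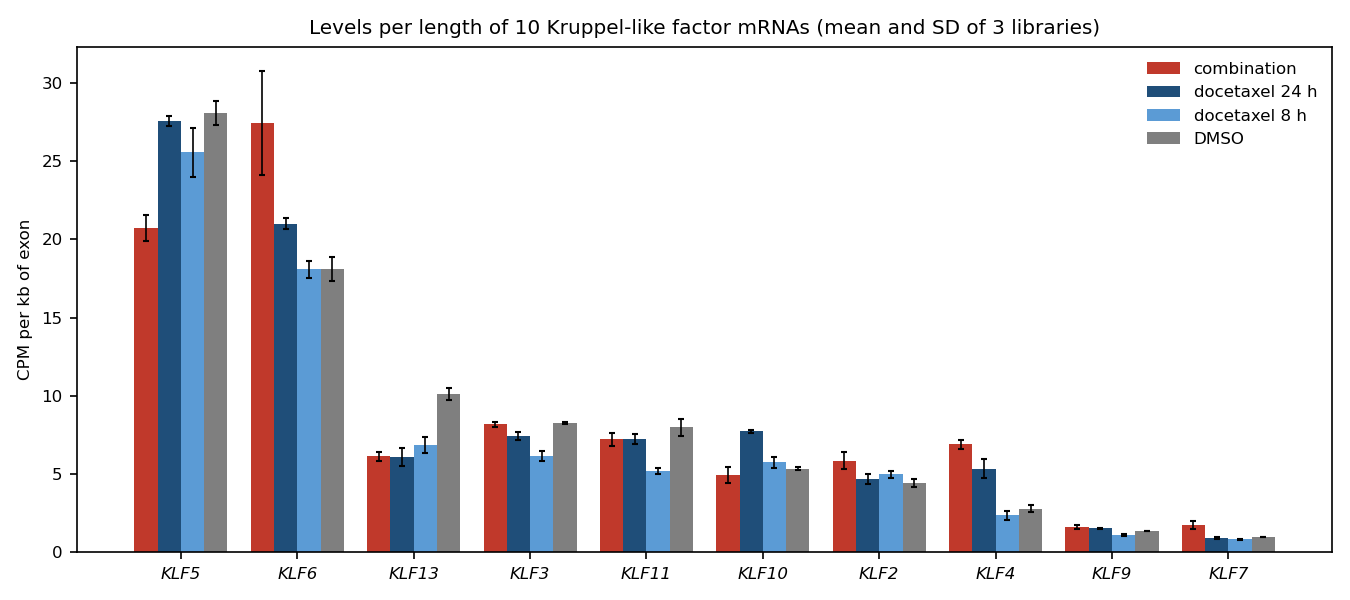
Mean and SD over 3 libraries of TMM-scaled CPM per kilobase of exon (vertical axis, from 0) for each member, with bars for the combination, docetaxel 24 h, docetaxel 8 h and DMSO. KLF5 leads in DMSO (28.1) and KLF6 in the combination (27.4), while KLF7 and KLF9 stay under 2 in all groups.

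For the members whose groups spanned at least 1 on the log2 scale, the protein-coding genes with the most similar pattern were sought among 11066 candidates with at least 5 CPM in their highest group mean. For KLF4 they were TIPARP (Pearson r = 0.987), CSRNP1 (0.971) and BBC3 (0.967), and for KLF7 they were SAP30L (0.986), HEG1 (0.981) and AGPAT4 (0.977). AGPAT4 passed that minimum only through the combination (10.4 CPM, against 4.83 CPM in DMSO), the group where KLF7 was high too. Each r is a description over the 12 libraries, which share the 4 groups. TIPARP stood at 25.1 CPM in the combination, 21.8 CPM at docetaxel 24 h, 12.8 CPM at docetaxel 8 h and 14.6 CPM in DMSO. Among the members themselves r ran from -0.825 between KLF2 and KLF5 to 0.910 between KLF3 and KLF11.

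Beyond the members, of 8 other KLF genes, 6 were tested, and KLF17 and KLF18 were near 0 in all groups. For all lists that follow, the shares of all genes tested that were called in either direction were 62.8% in the combination, 42.9% at docetaxel 24 h and 47.3% at docetaxel 8 h, each against DMSO, and a list near its share shows nothing of its own. In the combination against DMSO 2 other KLF genes were higher and 3 lower. KLF14 averaged 6.06 ± 0.774 CPM in the combination and 2.93 ± 0.283 CPM in DMSO (log2 fold change 1.04 ± 0.14, edgeR adjusted p = 1.05e-06), and KLF15 averaged 1.72 and 0.598 CPM. KLF8, KLF16 and KLF1 were lower. At docetaxel 24 h and at docetaxel 8 h, 0 were higher and 3 lower.

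The SP factors bind the same GC boxes. In the combination 2 of 7 tested were higher and 5 lower, where 31.4% of all genes tested were higher and 31.4% lower. SP8 averaged 16.0 CPM in the combination and 3.77 CPM in DMSO (log2 fold change 2.08 ± 0.13, edgeR adjusted p = 3.89e-12), and SP6, an epithelial member, averaged 26.2 CPM and 77.9 CPM (-1.57 ± 0.06, edgeR adjusted p = 1.46e-16). SP1, the ubiquitous founder, had a log2 fold change of -0.55 in the combination, -0.59 at docetaxel 24 h and -0.32 at docetaxel 8 h, all called.

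Corepressors used by the repressing members were lower in the combination in 10 of 11 cases and higher in 0, where 31.4% of all genes tested were lower and 31.4% higher, and the median log2 fold change was -0.26 against 0.01 over all genes. SIN3A had -0.45 ± 0.06 (edgeR adjusted p = 3.73e-07), and CTBP2, the partner of KLF3, had -0.40 ± 0.05. At docetaxel 24 h 2 were higher and 3 lower, and at docetaxel 8 h 4 were higher and 4 lower (2 and 5 with library totals), where 42.9% of all genes were called in either direction at docetaxel 24 h and 47.3% at docetaxel 8 h. SAP30, a SIN3A-complex subunit, was among the higher at docetaxel 8 h (0.65 ± 0.06, edgeR adjusted p = 8.98e-09). Of 5 acetyltransferases, 0 were higher and 2 lower in the combination (EP300 and KAT2A), 1 was higher and 0 lower at docetaxel 24 h, and 1 was higher and 3 lower at docetaxel 8 h.

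FOXO factors, which AKT holds out of the nucleus and which are known to act upstream of KLF2 in T cells, divided in the combination. FOXO1 averaged 14.3 CPM in the combination and 5.49 CPM in DMSO (log2 fold change 1.38 ± 0.12, edgeR adjusted p = 7.38e-10), and FOXO4 averaged 27.6 CPM and 11.4 CPM (1.28 ± 0.09). FOXO6 and FOXO3 were lower (-0.83 and -0.17). At docetaxel 8 h FOXO3 and FOXO4 were lower, at -0.73 ± 0.06 and -0.75 ± 0.11 (edgeR adjusted p = 7.29e-10 and 4.55e-06), and with library totals all 4 were lower. At docetaxel 24 h 0 of 4 were higher and 2 lower.

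The ERK5 kinase module with MEF2 factors, known to induce KLF2 and KLF4 in endothelium, had 3 of 8 genes higher and 2 lower in the combination (1 and 3 with library totals), 0 higher and 4 lower at docetaxel 24 h, and 0 higher and 5 lower at docetaxel 8 h (1 and 5 with DESeq2 size factors). The 5 of 8 called in the combination lie at the 62.8% called over all genes, and 42.9% were called at docetaxel 24 h and 47.3% at docetaxel 8 h. MEF2C averaged 8.84 CPM in the combination, 5.58 CPM at docetaxel 24 h and 3.41 CPM at docetaxel 8 h, against 6.53 CPM in DMSO.

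Of 14 genes of TGF-beta signalling, which induces KLF10 and KLF11 in other cells, 5 were higher and 4 lower in the combination, and 4 were higher and 4 lower at each docetaxel time (2 and 9 with library totals at docetaxel 8 h). The 9 of 14 called in the combination lie near the 62.8% called over all genes, and 8 of 14 were called at each docetaxel time, where 42.9% of all genes were called at docetaxel 24 h and 47.3% at docetaxel 8 h. SMAD3 averaged 88.6 CPM in the combination and 42.2 CPM in DMSO (log2 fold change 1.07 ± 0.07, edgeR adjusted p = 3.53e-12).

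Of 7 tested genes of steroid and thyroid receptor signalling, 3 were higher and 2 lower in the combination, 1 was higher and 3 lower at docetaxel 24 h, and 0 were higher and 3 lower at docetaxel 8 h. TSC22D3, a glucocorticoid-induced gene, averaged 92.2 CPM at docetaxel 8 h and 184 CPM in DMSO (edgeR adjusted p = 5.52e-12). Of 14 ubiquitin ligases and stabilisers of KLF proteins, 2 were higher and 6 lower in the combination (1 and 8 with library totals), 1 was higher and 5 lower at docetaxel 24 h, and 1 was higher and 6 lower at docetaxel 8 h (0 and 11 with library totals). Over all genes 62.8% were called in the combination, 42.9% at docetaxel 24 h and 47.3% at docetaxel 8 h.

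Of 39 genes that other work names as targets of these factors, 34 were tested. In the combination 20 were higher and 9 lower (median log2 fold change 0.28, against 0.01 over all genes), at docetaxel 24 h 11 were higher and 10 lower (median 0.07, against 0.006), and at docetaxel 8 h 10 were higher and 15 lower (7 and 18 with library totals, median -0.16, against -0.02). Over all genes tested, 31.4% were higher and 31.4% lower in the combination, 20.2% and 22.7% at docetaxel 24 h, and 22.5% and 24.8% at docetaxel 8 h.

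NOS3, the endothelial nitric oxide synthase and a known KLF2 target, had 44.5, 46.0 and 46.6 CPM in the combination, against 0.322, 0.508 and 0.384 CPM in DMSO. It was at 0.178 to 0.902 CPM in the docetaxel libraries, and its log2 fold change was 6.84 ± 0.16 (edgeR adjusted p = 8.71e-20). Of the endothelial markers given with KLF2, KDR, CDH5 and ESAM were higher in the combination, and the means of PECAM1 and TIE1 were not above DMSO. Their part in the NOS3 result was not tested. IVL, the cornified-envelope protein involucrin, averaged 20.2 ± 0.628 CPM in the combination and stood at 1.38, 0.761 and 0.857 CPM in the DMSO libraries (4.29 ± 0.16, edgeR adjusted p = 2.68e-16). In the same list, where 20 genes were higher and 9 lower in the combination, the keratins KRT4 and KRT19 were lower (-0.84 and -0.50). KRT13 did not pass, and EPPK1 and CDH1 were lower (-0.61 and -0.48).

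The cell-cycle inhibitor CDKN1A, a known KLF4 and KLF6 target, had 99.6, 96.3 and 104 CPM in the combination, against 40.1, 38.4 and 43.2 CPM in DMSO. Its log2 fold change was 1.30 ± 0.06 in the combination (edgeR adjusted p = 5.09e-14), 0.27 ± 0.07 at docetaxel 24 h (edgeR adjusted p = 0.00173) and -0.34 at docetaxel 8 h. CDKN1C averaged 19.0 CPM in the combination and 4.14 CPM in DMSO (2.21 ± 0.12). MYC averaged 102 ± 6.57 CPM in the combination and 198 ± 5.65 CPM in DMSO (-0.95 ± 0.05, edgeR adjusted p = 6.66e-13). ATF3, a stress-induced factor, averaged 47.0 ± 2.60 CPM at docetaxel 24 h and 17.8 ± 1.11 CPM in DMSO (1.40 ± 0.08, edgeR adjusted p = 1.15e-11).

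**Figure D4:**
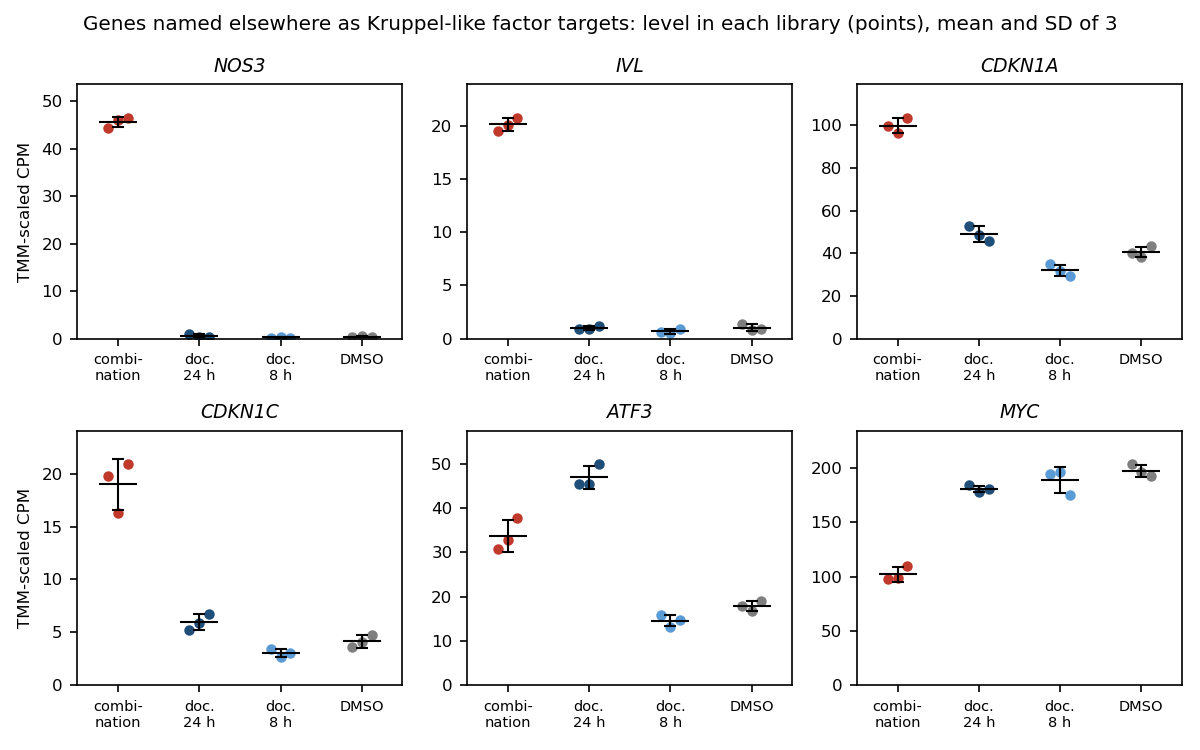
TMM-scaled CPM (vertical axis, from 0, own scale per panel) of NOS3, IVL, CDKN1A, CDKN1C, ATF3 and MYC in each library (points), with mean and SD of 3 libraries, for the combination, docetaxel 24 h, docetaxel 8 h and DMSO. NOS3 and IVL stand high in the combination alone (45.7 and 20.2 CPM), ATF3 is highest at docetaxel 24 h (47.0 CPM), and MYC is lowest in the combination (102 CPM).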

How the data were processed

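RNA was poly(A)-selected from 12 libraries of MDA-MB-468 cells. Raw read counts per gene symbol were deposited by the authors. Per the submitters' processing notes, fastp, HISAT2 2.0.5, DESeq2 and build hg38 were used, and no source used here names the gene counter or its strand setting. The members and gene lists were chosen with earlier results of these data known. The deposited counts were fitted with edgeR 4.0.16 (R 4.3.3, limma 3.58.1): TMM scaling, filterByExpr with a minimum count of 10, 1 mean per group over all 12 libraries, 8 residual degrees of freedom, quasi-likelihood F tests and Benjamini-Hochberg adjustment over 17780 genes (threshold 0.05). The SE is approximate, the log2 fold change divided by the root of F. The common biological coefficient of variation was 5.59%. The fit was tested on simulated data in which few genes changed, equally many up and down, in the combination only. Such data do not test the scaling where many genes change. Exon lengths came from GENCODE release 29, and promoters from RefSeq. All members were named, and of each list mainly the genes with the smallest adjusted p. Alternatives were DESeq2 size factors, library totals, no filter, DESeq2 1.42.0, 2-group fits, a replicate block and each library left out.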

Additional observations from a re-analysis of the deposited data

Results flagged for a closer look

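For 7 of 10 members the docetaxel effect against DMSO differed between 24 h and 8 h, where 34.9% of all genes tested were called. This is the direct test of docetaxel 24 h against docetaxel 8 h in edgeR's quasi-likelihood fit (Benjamini-Hochberg adjusted). With library totals the median log2 fold change of all genes in that test was 0.14. The difference of the log2 fold changes, 24 h minus 8 h, was 1.17 for KLF4, 0.47 for KLF9, 0.47 for KLF11, 0.43 for KLF10, 0.27 for KLF3, 0.21 for KLF6 and -0.18 for KLF13 (3 libraries a group). KLF4 was above DMSO at 24 h (0.94) and not called at 8 h (-0.23). KLF11 was not called at 24 h (-0.14) and below DMSO at 8 h (-0.61). KLF13 was below DMSO at 24 h (-0.74) and at 8 h (-0.56), and its difference was lost in 6 of 12 alternatives.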

How the results depend on the processing

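Of 60 member comparisons 42 were called, and 32 of those were called under every one of the 12 alternatives. Over all genes tested, 62.8%, 42.9% and 47.3% were called for the combination, docetaxel 24 h and docetaxel 8 h against DMSO. Between the docetaxel times 34.9% were called, and for the combination against docetaxel 24 h and 8 h 63.8% and 66.4%. The comparisons share the same 4 groups. The share called under every alternative was not computed over all genes. Over the 504 alternative values of the called results, 48 lost the call, 34 of them with a library left out, and 0 changed sign. Of the 18 member comparisons not called, 6 were called under at least 1 alternative, in 14 values. Leaving out 1 library, 3 to 6 members were called for docetaxel 24 h against DMSO, with 3 without DMSO library C. In the same fits 6208 to 7235 of all genes were called, against 7627 with no library left out.

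Sign changes occurred among results that were not called. KLF6 at docetaxel 8 h against DMSO was 0.0096 with DESeq2 size factors, 0.0074 with DESeq2, 0.0068 in the 2-group fit, and -0.026 to 0.049 with a library left out. KLF11 in the combination against docetaxel 24 h was 0.0052 with DESeq2 size factors, 0.0020 with DESeq2, and -0.048 to 0.035 with a library left out. KLF13 in that comparison was -0.000118 with library totals, -0.00798 with no filter, and -0.050 to 0.074 with a library left out. With library totals KLF10 at docetaxel 8 h against DMSO was -0.047, and KLF2 at docetaxel 24 h against docetaxel 8 h was 0.041. KLF5 at docetaxel 24 h against DMSO was -0.033 to 0.0046 with a library left out. The cause was not tested. With library totals the median of all genes was 0.14 for the combination against docetaxel 8 h.

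Deviations from the group mean correlated from -0.134 to 0.143 between libraries of the same letter, and 1 of 18 pairs was over 0.1. Pairs of different letters were not computed, so these values cannot decide whether the letters pair the libraries. With the replicate block, KLF9 in the combination against DMSO kept 0.22 and lost its call (edgeR adjusted p = 0.0513). KLF11 gained one in the combination and at docetaxel 24 h against DMSO (edgeR adjusted p = 0.0356 and 0.0495), as did KLF4 at docetaxel 8 h against DMSO (edgeR adjusted p = 0.0333), and 7, 6 and 7 members were called for the combination, docetaxel 24 h and docetaxel 8 h against DMSO. With 3 libraries a group and 539 to 15743 counts per member and group, small differences could not be resolved reliably. The smallest one called, -0.13 for KLF5 at docetaxel 8 h against DMSO, was lost in 4 of 12 alternatives.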

Other observations

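Outside the endothelial list, other cell-type markers gave these values. Immune markers summed to 38.4 to 45.0 CPM per library in the combination, 34.0 to 36.1 CPM at docetaxel 24 h and 25.9 to 27.5 CPM at docetaxel 8 h, against 54.2 to 56.8 CPM in DMSO, almost all of it CD14 and CSF1R. In the combination these differed in opposite directions: CSF1R averaged 15.4 CPM in the combination and 2.73 CPM in DMSO (log2 fold change 2.50, edgeR adjusted p = 2.21e-15), and CD14 averaged 26.9 CPM in the combination and 52.4 CPM in DMSO (-0.96, edgeR adjusted p = 8.37e-11). Fibroblast markers summed to 22.4 to 23.5 CPM in the combination, 16.7 to 19.9 CPM at docetaxel 24 h and 12.5 to 13.8 CPM at docetaxel 8 h, against 21.2 to 22.4 CPM in DMSO. Within that list LUM averaged 4.17 CPM in the combination and was at 0 in the other groups.

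IGFL1 averaged 18.9 CPM at docetaxel 8 h and 2.24 CPM in DMSO (log2 fold change 3.07 ± 0.11, edgeR adjusted p = 2.04e-15). MAOA, which encodes a monoamine oxidase named as a KLF11 target, averaged 5.63 CPM in the combination and 1.02 CPM in DMSO (2.47).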
